A study of Mus musculus with 14 samples.

Results

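The genes described here are *Mgat1*, *Mgat2*, *Mgat3*, *Mgat4a*, *Mgat4b*, *Mgat5* and *Fut8*, whose enzymes set the branching of N-glycans in the Golgi. They are 7 of the 19525 genes in the count table, found by their symbols, and all 7 had counts in each of the 14 libraries. *Mgat3* was chosen by its measured difference between *Dhps*-silenced and control spheroids, while the other 6 were added for the step their enzymes carry out. The values that chose *Mgat3* are therefore given as a description without a p-value. All 7 genes and the pathway lists below were chosen with earlier results of these data known, so their tests are not independent of that choice.

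Sequenced mRNA came from the cytosolic lysate of spheroids of 4T1, a mouse mammary carcinoma cell line, after 5 days in lung-like medium. Control cells with a non-targeting hairpin were grown with 700 µM added aspartate (ASP shSCR, n = 4) or without it (NoASP shSCR, n = 3). Cells with a hairpin against *Grin2d*, an NMDA receptor subunit (ASP shGRIN2D, n = 3), or against *Dhps*, the enzyme that begins the hypusination of eIF5A (ASP shDHPS, n = 4), were grown with 700 µM aspartate only. All groups carried a lentiviral hairpin vector and were polyclonal cells selected with puromycin, and neither silenced line was measured without aspartate. The labels name no other cell type.

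N-glycans are sugar trees that are attached to proteins in the endoplasmic reticulum and rebuilt in the Golgi. Mgat1 adds the first N-acetylglucosamine branch, which opens the way to hybrid and complex glycans, and Mgat2 adds the branch that makes a glycan complex. Mgat4a, Mgat4b and Mgat5 add further branches to the core. Mgat3 adds the bisecting N-acetylglucosamine, a residue in the middle of the core that is not extended and that hinders further branching. Fut8 attaches the core fucose. In carcinoma cells, branching by Mgat5 and bisection by Mgat3 are known for opposite associations with cell adhesion and spread.

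Total counts ranged from 12731123 to 23231378 per library. *Dhps* measured 5.46 to 9.08 CPM, a count divided by its scaled library total, in ASP shDHPS and 16.7 to 22.1 CPM in ASP shSCR. *Grin2d* reached no more than 125 counts in any library. Its difference between ASP shGRIN2D and ASP shSCR (log2 fold change -0.55 ± 0.28, SE) did not pass the test. The libraries of these groups did not overlap, as was so for 12% of all genes. Against NoASP shSCR it was -1.02 ± 0.29 (log2, SE; edgeR adjusted p 0.142). These low counts hardly check that label, and the paper checked the *Grin2d* knockdown in 4T1 spheroids by quantitative PCR. On the first principal component (32.2% of the variance), ASP shSCR replicate 2 and NoASP shSCR replicate 2 stood apart from the other shSCR libraries, at -25.8 and -19.7. The remaining shSCR libraries spanned -8.7 to 6.3. ASP shDHPS replicates 1 to 4 lay at 27.5, 9.3, 19 and 6.2, and ASP shGRIN2D replicates 1 to 3 at -4.8, 0.8 and -2.2. All 9 epithelial markers, among them *Epcam*, *Krt8* and *Cdh1*, had counts, with summed levels of 5258 to 5508 CPM in both shSCR groups, 3958 to 4271 CPM in ASP shGRIN2D and 4187 to 4914 CPM in ASP shDHPS. The summed fibroblast markers, 22.8 to 40.7 CPM, were almost entirely *Pdgfra*, and *Dcn* was at 0 in every library of 3 groups. The summed markers of leukocytes stayed under 0.92 CPM and those of endothelium at or under 0.55 CPM in every library.

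*Mgat3* (ENSMUSG00000042428) was the gene whose level differed most among the 7. In ASP shSCR it had 186, 235, 110 and 94 counts in replicates 1 to 4, which is 8.13, 13.1, 5.39 and 7.38 CPM. NoASP shSCR replicates 2 to 4 had 205, 86 and 110 counts, or 10.97, 4.54 and 6.12 CPM. Replicate 2 was the highest library of both groups. ASP shGRIN2D replicates 1 to 3 held 133, 115 and 66 counts, or 6.85, 6.75 and 4.40 CPM. In ASP shDHPS only 22, 33, 24 and 29 counts were found, which is 1.16, 2.198, 1.30 and 1.55 CPM. Every ASP shDHPS library lay under every library of the other groups, and the libraries of those 3 groups overlapped one another. *Mgat3* was chosen by its level in ASP shDHPS, so this separation is a description. The share of all genes separated from all 3 groups in this way was not counted.

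By group means, *Mgat3* was ordered ASP shSCR (8.50 ± 3.27 CPM, SD, n = 4), NoASP shSCR (7.21 ± 3.36 CPM, SD, n = 3), ASP shGRIN2D (6.0 ± 1.39 CPM, SD, n = 3) and ASP shDHPS (1.55 ± 0.462 CPM, SD, n = 4). Neighbours among the first 3 differed by less than their spread. The distance from ASP shGRIN2D to ASP shDHPS was larger than the spread of either group.

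**Figure D1:**
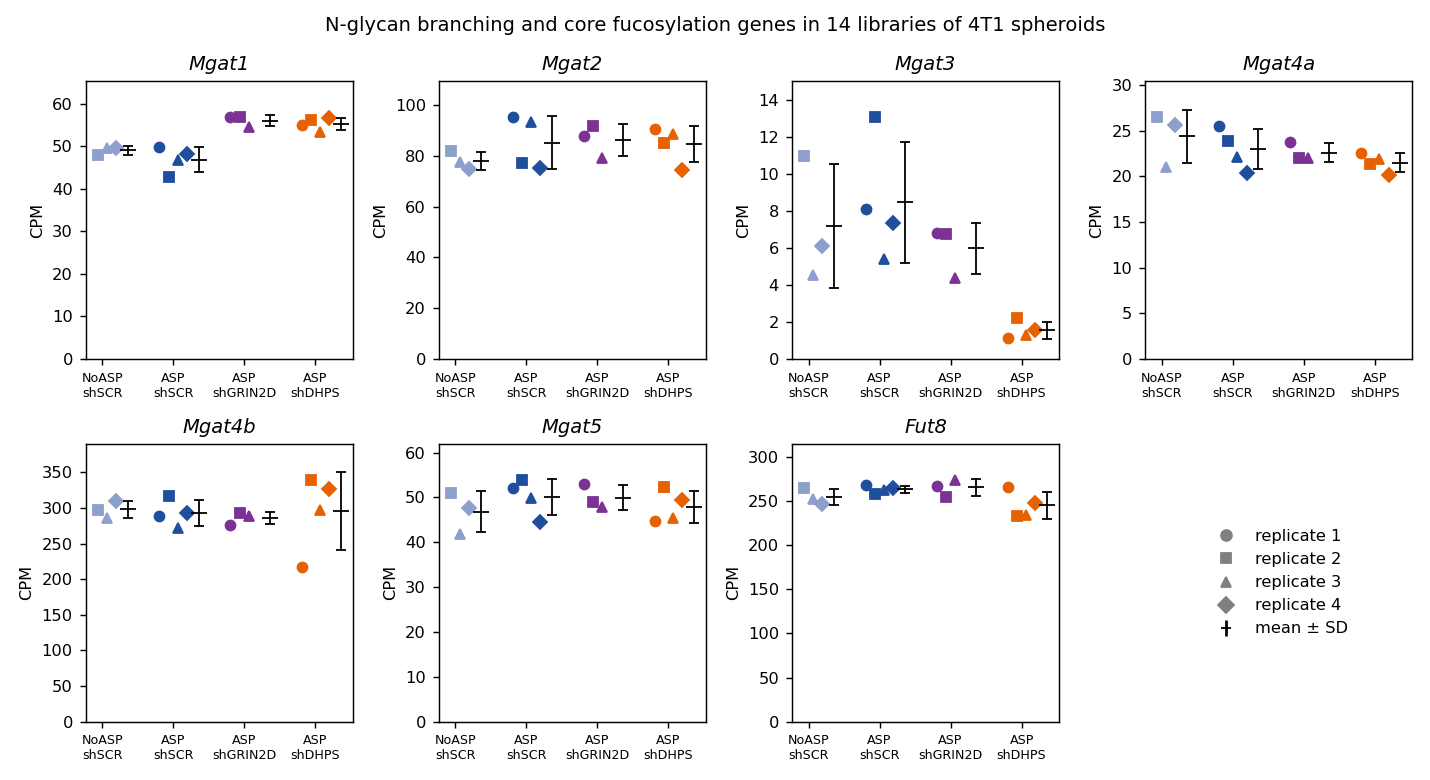
CPM of the 7 genes in each library, with groups on the x axis, linear y axes that start at 0, symbols for replicate numbers and black bars for mean ± SD. The 4 ASP shDHPS libraries are at 1.16 to 2.198 CPM for *Mgat3*, which was chosen by its level there, under all other libraries (4.40 to 13.1 CPM). The groups of *Mgat2*, *Mgat4a*, *Mgat4b*, *Mgat5* and *Fut8* overlap. For *Mgat1* the knockdown libraries are at 53.3 to 56.8 CPM and the shSCR libraries at 42.8 to 49.8 CPM, a difference that edgeR did not call.

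Silencing of *Dhps* was compared with the control hairpin to ask which transcripts depend on this enzyme when aspartate is present. *Mgat3* was lower by a log2 fold change of -2.47 ± 0.31 (SE), with a 95% interval from -3.11 to -1.83, or 5.53-fold. Since this contrast chose the gene, the value and its interval are a description and not a test. None of the other 6 genes was called at an adjusted p under 0.05, where 4.22% of all 19525 genes were called (824 genes). The groups of *Mgat3* and *Mgat1* did not overlap, as was so for 11.1% of all genes. By replicate number 1 to 4, the ASP shSCR level was 7.04, 5.95, 4.16 and 4.77 times that in ASP shDHPS. The libraries of these groups were not taken as paired. In replicates 1 to 4, the correlation across genes of their deviations from group means was 0.258, 0.195, 0.201 and 0.04. Without ASP shSCR replicate 2, the highest library, the log2 fold change was -2.18. In bulk RNA, fewer cells that express *Mgat3* and less *Mgat3* RNA per cell cannot be told apart.

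The ASP shDHPS libraries were also compared with ASP shGRIN2D, which asks how both knockdowns differ. *Mgat3* was lower in ASP shDHPS by a log2 fold change of -1.97 ± 0.33 (SE), with a 95% interval from -2.66 to -1.29. This contrast uses the same ASP shDHPS libraries that chose the gene, so it is also a description. In this contrast 2.82% of all genes were called, and the groups of 15.1% did not overlap. None of the other 6 genes was called, and the libraries of all 6 overlapped.

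With *Grin2d* silenced, *Mgat3* differed from ASP shSCR by -0.50 ± 0.29 (log2, SE), and edgeR's adjusted p was 0.581. The ASP shSCR libraries had a part in the choice of *Mgat3*, so this contrast is no independent test of it. Leaving out replicate 2 of ASP shSCR moved this value to -0.21, and leaving out replicate 3 of ASP shGRIN2D to -0.32. Against NoASP shSCR, libraries that had no part in the choice of *Mgat3*, the difference was -0.26 ± 0.31 (log2, SE; edgeR adjusted p 0.847). The groups overlapped in both contrasts, and the 95% intervals, from -1.09 to 0.10 and from -0.90 to 0.38, leave room for a change in either direction. None of the 7 genes was called in these contrasts, in which 1.16% and 0.681% of all genes were called. The second of these differences changed direction, to 0.18, without NoASP shSCR replicate 2.

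Added aspartate was compared with none in control spheroids to ask what aspartate itself changes. In the main fit, which does not pair libraries, none of the 7 genes was called, as was so for all genes. There, edgeR called 0%, with 424 genes at an unadjusted p under 0.05. A replicate block within the shSCR libraries, added after seeing the data, called 64 genes, with 0 of the 7 among them. For *Mgat3* the log2 fold change was 0.24 ± 0.28 (SE), with a 95% interval from -0.35 to 0.82. Replicate numbers were taken to pair the libraries of these groups. ASP shSCR was at 1.19, 1.19 and 1.21 times the NoASP shSCR level in replicates 2, 3 and 4. The ASP shSCR libraries had a part in the choice of *Mgat3*, so the shared direction of these 3 pairs is a description only. The exact 95% counting intervals of these ratios, 0.985 to 1.45, 0.888 to 1.59 and 0.907 to 1.61, each held 1. Without ASP shSCR replicate 2 the unpaired difference turned to -0.05, and without NoASP shSCR replicate 3 to -0.01. Each of these fits leaves a library without its partner. Under the alternatives that did not leave out a single library, the difference lay between 0.22 and 0.38. Among them were the replicate blocks and the fit without both shSCR replicate 2 libraries.

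**Figure D2:**
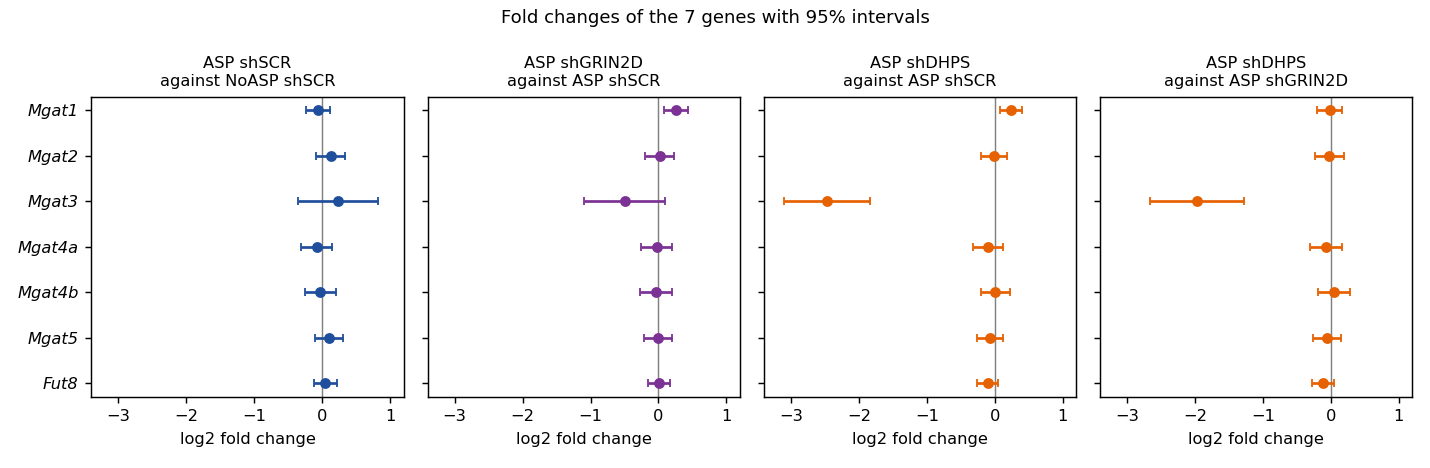
Log2 fold changes of the 7 genes in 4 comparisons, with points for edgeR estimates and bars for 95% intervals. *Mgat3* is at -2.47 and -1.97 in the ASP shDHPS comparisons, and the 6 other genes lie between -0.11 and 0.26 in all 4 panels. *Mgat3* was chosen by its difference between ASP shDHPS and ASP shSCR, so its bars in the ASP shDHPS comparisons are a description.

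*Mgat5* and *Mgat3* act on the same core in known opposition, so their counts were set against each other within each library, where library size has no part. In ASP shSCR there were 15.6, 24.3, 10.8 and 16.6 *Mgat3* counts per 100 *Mgat5* counts, and in NoASP shSCR 21.5, 10.8 and 12.8. ASP shGRIN2D had 12.9, 13.8 and 9.21, and ASP shDHPS had 2.58, 4.198, 2.86 and 3.14. The means were 16.8 ± 5.58, 15.1 ± 5.68, 11.96 ± 2.43 and 3.19 ± 0.708 (SD). The ASP shDHPS libraries again lay under all others, which is also a description, since *Mgat3* was chosen by its level there. *Mgat5* itself overlapped in all groups, from 41.9 to 53.9 CPM, so the ratio followed the counts of *Mgat3*.

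**Figure D3:**
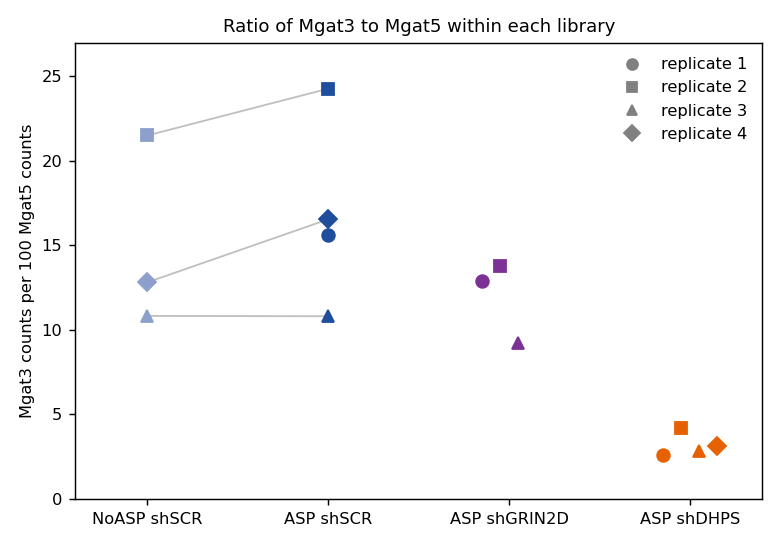
*Mgat3* counts per 100 *Mgat5* counts in each library, by group on the x axis, with symbols for replicate numbers and lines between shSCR libraries with the same number. The ASP shDHPS libraries, by whose level *Mgat3* was chosen, lie between 2.58 and 4.198 and all other libraries between 9.21 and 24.3.

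*Mgat1* (ENSMUSG00000020346), which opens the pathway to branched glycans, had its highest levels in the knockdown libraries, but the difference did not pass the main test in either knockdown. It measured 49.8, 42.8, 46.7 and 48.2 CPM in ASP shSCR and 47.9, 49.7 and 49.5 CPM in NoASP shSCR. ASP shGRIN2D had 56.8, 56.8 and 54.5 CPM, and ASP shDHPS had 55.1, 56.1, 53.3 and 56.6 CPM. All 7 knockdown libraries lay above all 7 shSCR libraries, and 1.24% of all genes were separated in this way, in either direction. The groups did not overlap for 12% of all genes between ASP shGRIN2D and ASP shSCR and for 14.8% between ASP shGRIN2D and NoASP shSCR.

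Against ASP shSCR, the log2 fold change of *Mgat1* was 0.24 ± 0.08 (SE) in ASP shDHPS and 0.26 ± 0.09 (SE) in ASP shGRIN2D, both of which share the ASP shSCR libraries. Neither passed over all genes in edgeR's quasi-likelihood test, with adjusted p values of 0.0971 and 0.209. With the Wald test of DESeq2 both passed, with adjusted p values of 0.0179 and 0.0358. Against NoASP shSCR the difference in ASP shGRIN2D was 0.19 ± 0.09 (SE; edgeR adjusted p 0.536). *Mgat1* did not differ between the knockdowns beyond its error (-0.02 ± 0.09, SE; 95% interval -0.20 to 0.16).

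*Mgat2* (ENSMUSG00000043998), which acts after Mgat1 and the Golgi mannosidases, ranged from 74.4 to 95.2 CPM over the 14 libraries. Its log2 fold changes lay between -0.03 and 0.14, and its highest values were in ASP shSCR replicates 1 and 3. *Mgat4a* (ENSMUSG00000026110) ranged from 20.2 to 26.5 CPM and *Mgat4b* (ENSMUSG00000036620) from 217.6 to 339.1 CPM. Both of these extremes of *Mgat4b* were ASP shDHPS libraries, replicates 1 and 2, and the SD of 54.5 CPM in that group compares with 8.63 to 18.7 CPM in the others. *Mgat4b* differed by 0.01 ± 0.10 (log2, SE) between ASP shDHPS and ASP shSCR, with a 95% interval from -0.20 to 0.23. *Mgat5* (ENSMUSG00000036155) differed by -0.07 ± 0.09 (log2, SE) and *Mgat4a* by -0.10 ± 0.10 (log2, SE) in the same contrast.

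*Fut8* (ENSMUSG00000021065), the only core fucosyltransferase, was among the steadiest. Its level was 263.3 ± 4.32 CPM with the control hairpin and aspartate and 245.4 ± 15.3 CPM in ASP shDHPS (SD, n = 4 each), with overlapping libraries and a log2 difference of -0.10 ± 0.07 (SE; edgeR adjusted p 0.466). For *Mgat2*, *Mgat4a*, *Mgat4b*, *Mgat5* and *Fut8* against ASP shSCR, the 95% intervals of both knockdowns reached from -0.31 to 0.23 at most on the log2 scale. Changes of the size of *Mgat3* lie outside these intervals.

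Per kilobase of the longest annotated transcript, the order of the genes was the same in all 4 groups, from *Mgat4b* and *Fut8* through *Mgat2*, *Mgat1*, *Mgat5* and *Mgat4a* to *Mgat3*. In ASP shSCR these levels were 120.5 ± 7.69 CPM per kilobase for *Mgat4b*, 78.4 ± 1.29 for *Fut8*, 32.6 ± 4.00 for *Mgat2* and 14.9 ± 0.953 for *Mgat1* (SD, n = 4). They were 5.94 ± 0.477 for *Mgat5*, 3.17 ± 0.307 for *Mgat4a* and 1.82 ± 0.701 for *Mgat3*. *Mgat3* was thus the least abundant of the 7 in every group, and its share of the summed per-kilobase level was 0.704% ± 0.257 (SD, n = 4) in ASP shSCR and 0.1298% ± 0.0312 (SD, n = 4) in ASP shDHPS. The transcripts used by these cells were not determined, and another length would move a gene's level per kilobase.

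Of 5 further genes of the branching family (*Mgat4c*, *Mgat4d*, *Mgat4e*, *Mgat4f* and *Mgat5b*), only *Mgat4c* was in the table, and it had 2 counts at most. The steps before and after branching were examined with lists of genes for the pathway, chosen with earlier results of these data known. Medians are given beside the median of 0.003 of all 17274 genes with more than 3 counts in a library. Silencing of *Dhps* with aspartate, under which 1.65% of all genes rose and 2.57% fell against ASP shSCR, is taken first. Among the 10224 genes that averaged 5 CPM or more, 286 rose and 423 fell in this contrast.

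Before branching, 2 of 23 genes for assembly of the lipid-linked precursor rose and none fell in ASP shDHPS, with a median log2 fold change of 0.13 over the list. *Alg14*, which helps to add the second N-acetylglucosamine to dolichol, rose from 19.0 ± 1.67 to 26.0 ± 2.80 CPM (SD, n = 4 each; log2 fold change 0.45 ± 0.11, SE). *Nus1*, needed for dolichol synthesis, rose by 0.29 ± 0.08 (log2, SE). None of the 12 genes of the oligosaccharyltransferase, which transfers the precursor to proteins, was called (median 0.14). Both lists had 0 called genes with *Grin2d* silenced.

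Among 18 genes for trimming and folding control, 2 fell and none rose in ASP shDHPS (median -0.04). *Man1c1*, a Golgi mannosidase that trims the glycan before Mgat1 acts, was at 20.8 ± 5.46 CPM with the control hairpin and 9.69 ± 1.56 CPM with shDHPS (SD, n = 4 each), a log2 fold change of -1.10 ± 0.19 (SE; edgeR adjusted p 0.00196). *Man2a1*, the Golgi mannosidase that acts between Mgat1 and Mgat2, fell by 0.38 ± 0.10 on the log2 scale (SE; edgeR adjusted p 0.0315).

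In the list for elongation and capping of the antennae, 15 genes had more than 3 counts in a library. *St3gal4*, a sialyltransferase that caps galactose in alpha-2,3 linkage, rose from 147.8 ± 20.8 to 199.1 ± 14.4 CPM (SD, n = 4 each), a log2 fold change of 0.43 ± 0.09 (SE; edgeR adjusted p 0.00975). *St6gal1*, which adds sialic acid in alpha-2,6 linkage to the same galactose, fell from 94.5 ± 6.98 to 73.5 ± 1.76 CPM (SD, n = 4 each; log2 fold change -0.36 ± 0.08, SE; edgeR adjusted p 0.0151). The other 13 did not pass, and the median of the list was -0.17. Of the genes for sugar nucleotides, *Pmm2*, a phosphomannomutase on the way to GDP-mannose, rose by 0.47 ± 0.12 (log2, SE; edgeR adjusted p 0.0229) and the other 23 did not pass (median 0.05).

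Of 13 genes for lysosomal breakdown of N-glycans, 2 rose and none fell in ASP shDHPS (median 0.06). *Neu1*, the lysosomal sialidase, rose from 16.4 ± 1.99 to 25.7 ± 3.27 CPM (SD, n = 4 each; log2 fold change 0.65 ± 0.12, SE; edgeR adjusted p 0.0028). *Hexa*, a subunit of beta-hexosaminidase, rose by 0.51 ± 0.12 (log2, SE; edgeR adjusted p 0.0126). Of 7 galectins, lectins that bind the galactose of N-glycan branches, *Lgals8* rose by 0.29 ± 0.08 (log2, SE; edgeR adjusted p 0.0458) and 6 did not pass (median 0.05). The calls of *Man2a1*, *St6gal1*, *Alg14*, *Nus1*, *Pmm2* and *Lgals8* were lost without ASP shSCR replicate 2 and, for some of them, without other single libraries, and those of *Man1c1*, *St3gal4*, *Neu1* and *Hexa* were not lost in any fit without 1 library. Of the 9 epithelial markers, *Epcam*, *Krt19* and *Krt7* fell and *Cldn3* rose in the same contrast, and their part in these differences was not tested.

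**Figure D4:**
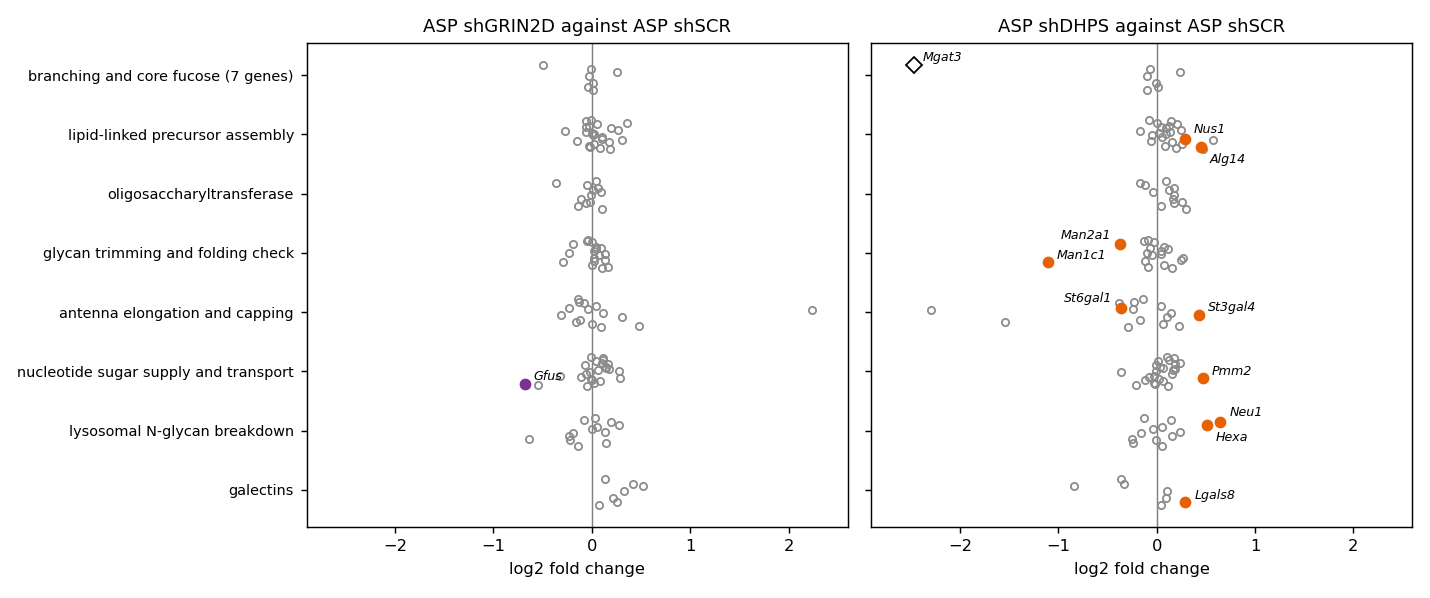
Log2 fold changes of genes of the N-glycan pathway against ASP shSCR, grouped by step, for ASP shGRIN2D and ASP shDHPS. Filled points with names passed an adjusted p of 0.05, open circles did not, and the open diamond is *Mgat3* at -2.47, which was chosen by that contrast. *Gfus* is the only filled point with *Grin2d* silenced.

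With *Grin2d* silenced, 1 of the 112 genes of these lists with more than 3 counts in a library was called against ASP shSCR (0.893%). Of all genes 1.16% were called, and 193 of the 10224 genes that averaged 5 CPM or more. *Gfus*, which makes GDP-fucose, the sugar donor of Fut8, fell to 21.1 ± 0.783 CPM (SD, n = 3), where the control hairpin had 33.9 ± 1.27 CPM (SD, n = 4). The log2 fold change was -0.68 ± 0.11 (SE; edgeR adjusted p 0.00225), and it was -0.63 ± 0.12 (SE; edgeR adjusted p 0.0115) against NoASP shSCR, a call that was lost without NoASP shSCR replicate 2 or ASP shGRIN2D replicate 1 or 3. In ASP shDHPS *Gfus* measured 33.4 ± 5.13 CPM (SD, n = 4), a difference of -0.02 ± 0.10 (log2, SE) from ASP shSCR. *Fut8* itself differed by 0.01 ± 0.08 (log2, SE) between ASP shGRIN2D and ASP shSCR. In the same contrast *Krt7*, *Krt18* and *Cldn7* of the epithelial markers fell, and their part in the difference of *Gfus* was not tested.

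Between the knockdowns, *St3gal4* was higher in ASP shDHPS by 0.74 ± 0.10 (log2, SE; edgeR adjusted p 0.000144), *Gfus* by 0.66 ± 0.11 (adjusted p 0.00179) and *Alg14* by 0.47 ± 0.12 (adjusted p 0.0326). *Man1c1* was lower by 0.81 ± 0.21 (log2, SE; edgeR adjusted p 0.0321). *Glb1*, the lysosomal beta-galactosidase, was lower by 0.38 ± 0.10 (log2, SE; edgeR adjusted p 0.0489), and the galectin *Lgals9* by 0.75 ± 0.12 (adjusted p 0.000994). *Lgals9* measured 22.4 ± 0.643 CPM (SD, n = 3) in ASP shGRIN2D and 13.2 ± 1.05 CPM (SD, n = 4) in ASP shDHPS, with ASP shSCR between them at 16.7 ± 2.52 CPM (SD, n = 4). *Lgals2*, which the naming rule left out for its low level and which was added after its values were seen, was also lower in ASP shDHPS, at 0.628 against 1.63 CPM. The calls of *Man1c1*, *Alg14* and *Glb1* were lost without ASP shGRIN2D replicate 1 and without several other single libraries.

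No gene of these lists was called with added aspartate in the main fit. The medians of the lists in ASP shSCR against NoASP shSCR lay between -0.05 and 0.09, and the genes named from them differed by at most 0.19 on the log2 scale, apart from *Lgals2* at 0.49 ± 0.36 (SE), a gene of few counts.

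Genes whose log2 CPM followed *Mgat3* most closely were sought among 9805 genes that averaged 5 CPM or more, as a description over the 14 libraries. Symbols of predicted gene models, clone names and marked pseudogenes, and *Mgat3* itself, were left out. The highest Pearson r values were 0.971 for *Pcolce*, an enhancer of procollagen cleavage, 0.970 for *Eml1*, a microtubule-associated protein, 0.963 for *Arhgef19*, 0.961 for *Epn2*, an epsin of clathrin-coated pits, and 0.959 for *Tgif2*, a homeobox repressor. The lowest were -0.974 for *Prnp*, the prion protein, -0.957 for *Cst6*, a cystatin, and -0.954 for *Gpr137b*, a lysosomal membrane protein. *Pcolce* fell from 145.2 ± 16.5 CPM in ASP shSCR to 67.9 ± 5.79 CPM in ASP shDHPS (SD, n = 4 each), and *Prnp* was at 128.5 ± 8.76 and 182.7 ± 8.02 CPM.

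These libraries share the split between ASP shDHPS and the rest, and *Mgat3* was lowest in the ASP shDHPS libraries. Over the 10 libraries without ASP shDHPS, r was 0.798 for *Pcolce*, 0.905 for *Eml1*, 0.923 for *Tgif2* and -0.912 for *Prnp*, but these libraries are among the 14 by which the genes were picked. Among these 10 libraries, replicate 2 of ASP shSCR and of NoASP shSCR, which lay apart on the first component, had the highest *Mgat3*. The ASP shDHPS libraries, with the lowest *Mgat3*, were at 6.2 to 27.5 on that component. The part of the component in the likeness was not tested. Of the other 6 branching genes, r with *Mgat3* ranged from -0.62 for *Mgat1* to 0.53 for *Mgat4a*.

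**Figure D5:**
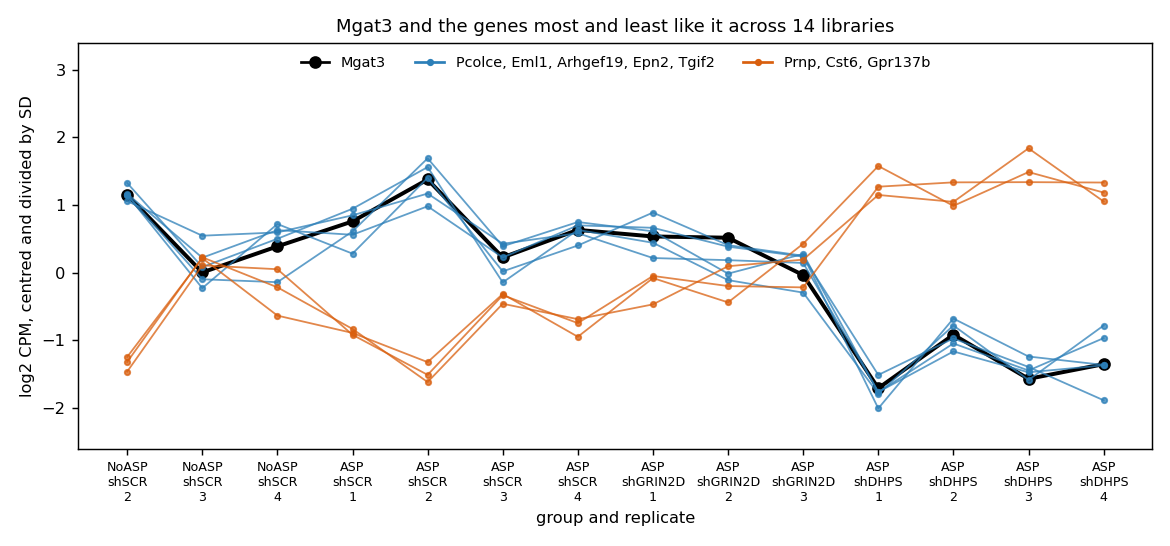
Log2 CPM of *Mgat3* (black), the 5 genes with the highest r (blue) and the 3 with the lowest r (orange), each centred and divided by its SD over the 14 libraries, with group and replicate on the x axis. *Mgat3* and the blue genes are high in replicate 2 of both shSCR groups and low in ASP shDHPS, and the orange genes run the other way.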

How the data were processed

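mRNA of 14 libraries was sequenced, and the sample descriptions gave each library its group and replicate number. The deposited table held estimated counts: per the labels and the methods, the authors trimmed reads with Trim Galore 0.6.6, mapped them to GRCm39 with STAR 2.6.1, quantified genes with Salmon 1.4.0, rounded the estimates to whole counts and dropped genes not expressed in 2 or more replicates of any 1 condition. Reads are divided by Salmon where they are shared by similar transcripts, and mRNA of the cytosolic lysate leaves nuclear RNA out. The authors' tables of fold changes with p-values and of gene set scores were not used.

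Counts were tested with edgeR 4.0.16 in R 4.3.3 (TMM, quasi-likelihood test, all 14 libraries, group as the only term) and adjusted by Benjamini-Hochberg over 19525 genes, and genes with an adjusted p under 0.05 were called. CPM was scaled by TMM, and log2 CPM used a prior count of 2. Genes that never exceeded 3 counts were tested but left out of the medians and shares of the pathway lists. In simulated counts over 19525 genes for ASP shDHPS against ASP shSCR, changes were placed only in genes that averaged 5 CPM or more. Of 67 genes changed 1.5-fold 68.7% were recovered, and of 67 changed 2-fold 97%. Recovery of changes in genes of lower level was not simulated. Lengths were those of the longest protein-coding transcript in GENCODE M21. Intervals of count ratios are exact and cover counting error only. Replicates came from the input of a polysome experiment on independent spheroid pellets, with 1 polyclonal line for each hairpin here as far as the sources say, so p-values measure the spread between pellets.

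All 7 genes were named in each contrast. From each pathway list, called genes averaging 5 CPM or more in the higher group were named, up to 5 for each list and contrast. The 7 genes and the lists were chosen with earlier results of these data known. Replicates of a group were checked and none were alike within sampling noise. Whether replicate numbers pair libraries was checked by the correlation across genes of their deviations from group means: r was 0.514, 0.287 and 0.203 for ASP shSCR and NoASP shSCR, so these were taken as paired, and other contrasts were not. Alternatives were DESeq2 1.42.0, RLE size factors, library size only, filterByExpr, a robust prior, a replicate block, only the groups compared, leaving out each library in turn or both shSCR replicate 2 libraries, and, added after seeing the data, the block within shSCR libraries.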

Additional observations from a re-analysis of the deposited data

Results flagged for a closer look

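The effects of both hairpins, each measured against the same ASP shSCR libraries, were compared by the contrast of ASP shDHPS with ASP shGRIN2D. Of 112 genes of the pathway lists, 7 were called (6.25%), beside 2.82% of all genes. These shares differ in their base, since the 112 genes had more than 3 counts in a library. The lists were chosen with earlier results of these data known, so the shares are a description. Among genes that averaged 5 CPM or more, 476 of 10224 were called. The effect of shDHPS minus that of shGRIN2D was -1.97 on the log2 scale for *Mgat3*, which was chosen by its value in ASP shDHPS and is given without a p. It was 0.66 for *Gfus*, 0.74 for *St3gal4*, -0.81 for *Man1c1*, 0.47 for *Alg14*, -0.38 for *Glb1* and -0.75 for *Lgals9*, each past an adjusted p of 0.05 in edgeR's test over all genes. The remaining call was *Lgals2* at -1.36, a gene under the level required for naming. *St3gal4* was at -0.31 in ASP shGRIN2D and 0.43 in ASP shDHPS against ASP shSCR, and *Lgals9* at 0.42 and -0.34. Among these values against ASP shSCR, only that of *St3gal4* in ASP shDHPS was called. No single library was flagged in 40 checks of groups of 4 libraries. With so few values such a check can flag only a very distant library, and it did not cover the groups of 3. On the first principal component, ASP shSCR replicate 2 stood apart from the other ASP shSCR libraries at -25.8, and ASP shDHPS replicate 1 was at 27.5.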

How the results depend on the processing

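*Mgat3* in ASP shDHPS, which was chosen by its value there, ranged from -2.67 to -2.18 against ASP shSCR under 16 alternatives and from -2.17 to -1.86 against ASP shGRIN2D under 15. DESeq2 called 1 member in ASP shGRIN2D against ASP shSCR and 2 in ASP shDHPS against ASP shSCR, *Mgat1* being the added gene in both. Changes of direction concerned small differences, at most 0.26 in size and none called, and the cause was not tested. With library size only, ASP shGRIN2D against ASP shSCR gave -0.006104 for *Mgat2* and -0.01059 for *Fut8*. Without both shSCR replicate 2 libraries it gave -0.0295 for *Mgat2*, 0.003517 for *Mgat4b* and 0.02894 for *Mgat5*, and ASP shGRIN2D against NoASP shSCR gave 0.175 for *Mgat3*.

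Leaving out 1 library, in fits that did not pair libraries, gave ranges that crossed 0. Against NoASP shSCR, ASP shSCR ranged from -0.0502 to 0.674 for *Mgat3* and from -0.0665 to 0.00808 for *Mgat4b*, and ASP shGRIN2D ranged from -0.507 to 0.179 for *Mgat3*. For ASP shGRIN2D against ASP shSCR the range was -0.0395 to 0.0737 for *Mgat2*, -0.0111 to 0.0403 for *Fut8*, -0.0703 to 0.00428 for *Mgat4b*, -0.0564 to 0.0299 for *Mgat5* and -0.0779 to 0.0292 for *Mgat4a*. For ASP shDHPS it was -0.0616 to 0.133 for *Mgat4b* and -0.0658 to 0.0471 for *Mgat2* against ASP shSCR, and -0.0251 to 0.17 and -0.0843 to 0.0312 against ASP shGRIN2D.

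Counts of called genes moved more. In the order aspartate, ASP shGRIN2D and ASP shDHPS against ASP shSCR, ASP shDHPS against ASP shGRIN2D, and ASP shGRIN2D against NoASP shSCR, leaving out 1 library gave 0 to 1, 86 to 208, 412 to 894, 209 to 577 and 56 to 121 genes. DESeq2 called 440, 1398, 920 and 327 genes in the last 4 of these. A fit of only the groups compared called 374 genes in ASP shGRIN2D against ASP shSCR and 246 against NoASP shSCR, and without both shSCR replicate 2 libraries 849 genes were called between the knockdowns.

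With the replicate block, 2, 611, 2150, 1468 and 338 genes were called in the same order, and 64 for aspartate within the shSCR libraries only. The block gave 0.0314 for *Mgat4b* with aspartate, -0.0297 for *Mgat2* in ASP shGRIN2D against ASP shSCR, -0.00268 for *Mgat4b* in ASP shDHPS against ASP shSCR, 0.021 for *Mgat2* between the knockdowns and 0.0259 for *Mgat4b* in ASP shGRIN2D against NoASP shSCR. It changed no call among the 6 genes other than *Mgat3*.

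Of 18 fold changes of other pathway genes, 59 of 279 values under the alternatives lost the call and none changed direction. With 22 to 33 counts of *Mgat3* in each ASP shDHPS library, its level there is less precise than that of the other 6 genes.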
